A study of Mus musculus with 6 samples.

Results

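The genes described here encode the degradative enzymes of the lysosome, the pump that acidifies it, and the membrane, lumenal, and regulatory proteins that go with them. They were named as a list of 42 gene symbols, and a probe stood for a symbol when its RefSeq accession mapped to it. All 42 symbols were among the 20630 gene symbols named on the array. The list held 13 cathepsins, 6 other hydrolases, 9 membrane, lumenal, and regulatory proteins, and 14 subunits of the vacuolar proton pump. The rule used signals only to read each gene from its brightest probe.

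Lysosomes break down proteins, glycans, lipids, and whole organelles that reach them by endocytosis or autophagy. Their hydrolases work at acidic pH, which the V-ATPase maintains: its cytosolic V1 sector splits ATP and its membrane V0 sector carries the protons. Most soluble hydrolases are marked with mannose 6-phosphate in the Golgi for delivery, and TFEB and TFE3 are transcription factors of many lysosomal genes. In adipose tissue, lysosomal acid lipase handles lipid taken up or delivered by lipophagy, and macrophages and osteoclasts are known for high levels of several cathepsins.

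RNA came from interscapular brown adipose tissue (iBAT), the thermogenic fat depot between the shoulder blades, of male C57BL/6 mice that were 16 weeks old by their labels. The 3 controls are labeled by genotype as control, without a statement that they were littermates, and the 3 *ob/ob* samples come from mice whose leptin gene is mutated in all cells, so that obesity, hyperglycemia, and the lack of leptin itself come together. Each sample was labeled with Cy3 and hybridized to 1 Agilent whole-genome mouse array, and pooling of animals is not mentioned in the labels, so that *P* values measure the spread between these samples. The intensities deposited by the authors were put on the log2 scale and quantile normalized between arrays here. All signals below are on this log2 scale, all differences are *ob/ob* minus control on it, and limma *P* values were adjusted by Benjamini and Hochberg over all 35448 probes tested. Single genes are also given with a two-sided exact permutation test, which with 3 samples against 3 cannot go below *P* = 0.10.

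Of the 43020 spots on each array, 83.5% to 89.9% lay well above background, and 0 spots were saturated. The 75th percentile of the signal before normalization was lowest on control 3, at 94.5, and 134.2 to 291.8 on the other arrays, while the spike-in controls had the lowest median on *ob/ob* 3, at 4.01 compared with 6.19 to 7.10. *Ucp1*, the uncoupling protein of brown adipocytes, had signals of 13.05, 11.72, and 9.48 in controls 1, 2, and 3 and 8.93, 9.12, and 10.03 in *ob/ob* 1, 2, and 3. It was well above background on all 6 arrays, with overlapping groups.

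The arrays did not fall into the labeled groups. Across the 35448 probes tested, the array of control 3 had a Spearman correlation of 0.915 with *ob/ob* 1 and 0.944 with *ob/ob* 2, but 0.642 with control 1 and 0.730 with control 2. The array of *ob/ob* 3 had one of 0.858 with control 1 and 0.770 with control 2, but 0.573 with *ob/ob* 1 and 0.488 with *ob/ob* 2. Controls 1 and 2 correlated at 0.964 and *ob/ob* 1 and 2 at 0.967. The labels were kept as deposited, and results are given with and without control 3 and *ob/ob* 3. A further division lies in scanning: the 6 arrays fall into 4 scans, of which 1 holds controls 1 and 3 and *ob/ob* 1 and each of the others a single array.

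Windows around the annotated start, from 250 bases before it to 50 bases after it, were taken from RefSeq (GRCm38.p6) for the 34 listed genes that had one. TFEB and TFE3 are known to bind an extended E-box, so the palindrome TCACGTGA and its core CACGTG were searched, and both read the same on either strand. TCACGTGA was found in 7 of the 34 genes (20.6%), compared with 1.12% of the 27025 genes with a window. CACGTG, which every TCACGTGA contains, was found in 13 of the 34 (38.2%), compared with 8.09%. Among the 15050 tested genes with a window, the shares were 1.53% for TCACGTGA and 9.54% for CACGTG. The 7 genes were *Ctsa*, *Ctsd*, *Gla*, *Mcoln1*, *Atp6v1a*, *Atp6v0d1*, and *Atp6v0e*. A match is a stretch of letters and was not measured as a bound site. By class, TCACGTGA was found in 2 of 9 cathepsins and 1 of 6 other hydrolases with a window. It was also found in 1 of 8 membrane, lumenal, and regulatory proteins and 3 of 11 pump subunits. Most of the genes with a window lacked it. The windows of 5 of the 7 genes are shown, at least 1 from each class, with TCACGTGA in capitals.

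*Ctsd*, cathepsin D, on the minus strand at chr7:142387778-142388077, with the match starting at position -99 relative to the annotated start:
Ctsd: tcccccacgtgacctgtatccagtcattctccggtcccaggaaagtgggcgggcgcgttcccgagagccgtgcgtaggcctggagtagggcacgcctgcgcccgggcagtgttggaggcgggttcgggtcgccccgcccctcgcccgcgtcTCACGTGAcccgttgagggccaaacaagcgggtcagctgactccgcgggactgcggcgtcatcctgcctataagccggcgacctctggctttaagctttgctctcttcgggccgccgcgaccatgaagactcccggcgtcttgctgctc
*Gla*, alpha-galactosidase A, on the minus strand at chrX:134600956-134601255, with matches starting at -228 and -195:
Gla: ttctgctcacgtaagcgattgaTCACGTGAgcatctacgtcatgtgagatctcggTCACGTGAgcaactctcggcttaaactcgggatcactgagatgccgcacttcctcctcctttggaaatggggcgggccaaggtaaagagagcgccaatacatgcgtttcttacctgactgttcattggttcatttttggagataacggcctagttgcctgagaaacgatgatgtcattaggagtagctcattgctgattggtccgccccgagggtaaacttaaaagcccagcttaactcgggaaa
*Mcoln1*, the lysosomal calcium channel TRPML1, on the plus strand at chr8:3500269-3500568, with the match starting at -46:
Mcoln1: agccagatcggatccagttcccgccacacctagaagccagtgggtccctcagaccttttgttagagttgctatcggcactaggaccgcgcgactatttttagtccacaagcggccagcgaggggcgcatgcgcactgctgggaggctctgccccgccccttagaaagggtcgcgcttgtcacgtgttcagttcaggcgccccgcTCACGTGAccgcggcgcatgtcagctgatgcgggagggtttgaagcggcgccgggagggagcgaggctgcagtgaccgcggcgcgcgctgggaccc
*Atp6v1a*, the catalytic subunit of the V1 sector, on the minus strand at chr16:44139210-44139509, with the match starting at -132:
Atp6v1a: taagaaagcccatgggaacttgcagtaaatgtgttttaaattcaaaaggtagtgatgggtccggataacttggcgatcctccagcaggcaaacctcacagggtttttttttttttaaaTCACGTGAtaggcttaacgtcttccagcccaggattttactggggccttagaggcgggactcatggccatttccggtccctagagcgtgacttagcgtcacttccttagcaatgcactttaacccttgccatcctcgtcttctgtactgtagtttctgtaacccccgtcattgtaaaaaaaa
*Atp6v0d1*, a subunit of the V0 sector, on the minus strand at chr8:105566015-105566314, with the match starting at -4:
Atp6v0d1: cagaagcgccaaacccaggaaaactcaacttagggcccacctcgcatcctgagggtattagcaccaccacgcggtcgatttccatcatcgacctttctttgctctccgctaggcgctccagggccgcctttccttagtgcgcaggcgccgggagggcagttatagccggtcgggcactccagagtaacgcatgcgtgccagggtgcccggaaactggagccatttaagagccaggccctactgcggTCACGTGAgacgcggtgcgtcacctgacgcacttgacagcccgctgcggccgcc

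The 7 genes with TCACGTGA had a median difference of 0.07, with a range of -0.93 (*Ctsd*) to 0.61 (*Atp6v1a*). The other 27 tested genes with a window had a median of 0.12, with a range of -1.67 to 2.65. The ranges overlapped, and the holders lay on both sides of 0. Without control 3 and *ob/ob* 3, both medians were below 0, at -1.35 and -0.79.

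Whether lysosomal transcripts differ between obese and control iBAT was addressed in 41 of the 42 genes. The exception, *Ctse*, was not well above background on any array, with signals of 1.74 to 1.91 in controls and 1.78, 1.99, and 4.32 in *ob/ob* samples, and was not tested. A total of 37 genes were well above background on all 6 arrays. The other 4 were *Ctsc*, *Ctsk*, and *Atp6v1c1*, measured above it on 2 arrays of each group, and *Atp6v1b2*, measured above it on 1 control and 2 *ob/ob* arrays. At an adjusted *P* under 0.05, 0 of the 41 genes differed, as did 0 (0%) of all 19007 genes tested, and the adjusted *P* was 1 for each of the 41.

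At an unadjusted *P* under 0.05, 2 of the 41 genes were higher in *ob/ob* iBAT, *Npc1* and *Atp6v1e1*, and 0 were lower, compared with 2.03% of all genes higher and 1.68% lower. The groups did not overlap in 3 genes, *Npc1*, *Atp6v1a*, and *Atp6v1e1*, all of them higher, compared with 3.76% of all genes higher and 4.19% lower. A total of 28 genes had a difference above 0 and 13 below it, while 42.9% of all genes lay above 0 and 57.1% below it. Over the 41 genes the median difference was 0.14, and over all genes it was -0.09. When arrays were scaled to their 75th percentile instead, the median of all genes moved to -0.30 and that of the 41 genes to 0.21. In bulk tissue, fewer cells of a type and less RNA per cell cannot be told apart.

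**Figure D1:**
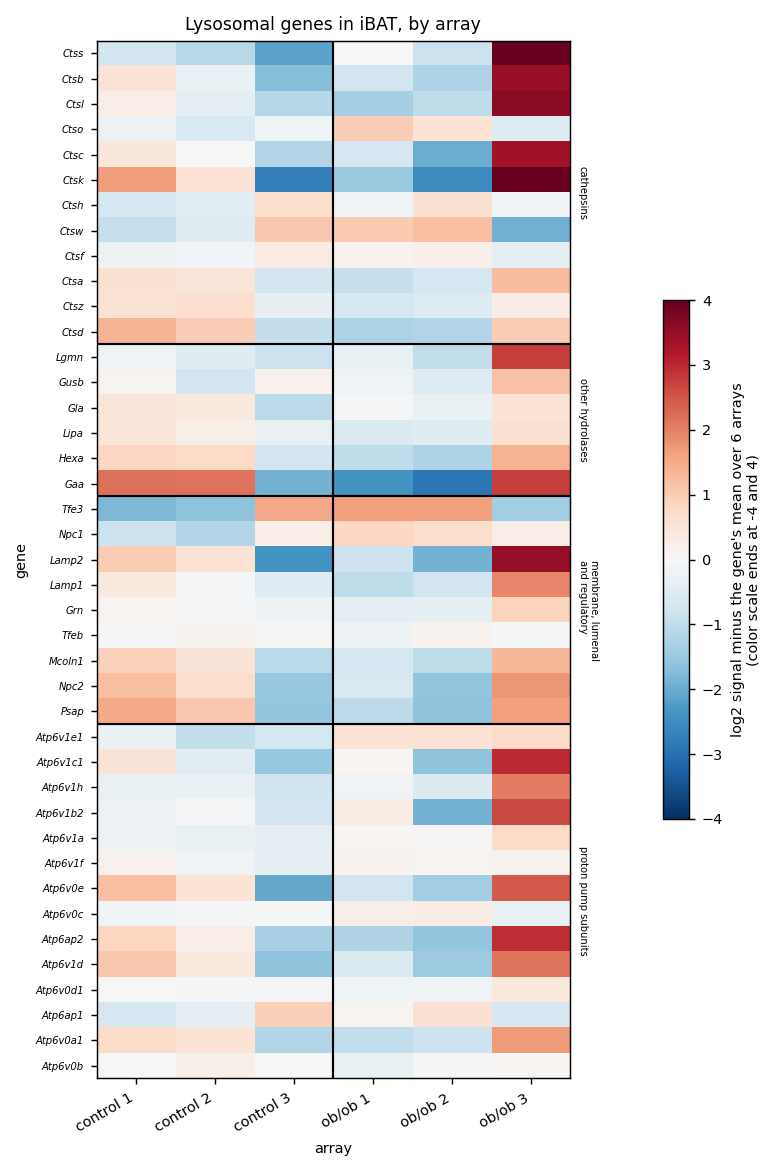
Signals of the 41 tested lysosomal genes on the 6 arrays, as log2 signal minus the mean of the gene over all arrays (color, ends at -4 and 4), with genes in rows by class and arrays in columns. The column of *ob/ob* 3 is the reddest, with 28 of 41 genes at their highest there, while control 3 is mostly blue like *ob/ob* 1 and 2.

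Cathepsins are the proteases of the lysosome, mostly of the cysteine type. The 12 tested cathepsins had a median difference of 0.29, with 8 above 0 and 4 below. They ranged from -0.93 to 2.65, and the groups overlapped for all 12.

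The largest difference of all 41 genes was that of *Ctss*, cathepsin S, which processes antigens in macrophages and other antigen-presenting cells. Its signals were 7.55, 7.19, and 6.15 in controls 1, 2, and 3 and 8.26, 7.44, and 13.14 in *ob/ob* 1, 2, and 3. The sample *ob/ob* 3 stood 4.88 above the next array, *ob/ob* 1 lay above all controls, and *ob/ob* 2 lay below control 1. The difference was 2.65 ± 1.48 (SE, n = 3 per group; limma *P* = 0.121, exact permutation *P* = 0.20). Without *ob/ob* 3 it was 0.79, and within the scan shared by controls 1 and 3 and *ob/ob* 1 it was 1.41.

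At the other end, *Ctsd*, the aspartic protease cathepsin D, whose promoter window is shown above, had signals of 11.13, 10.77, and 8.83 in controls and 8.55, 8.61, and 10.78 in *ob/ob* samples. Control 3 lay with *ob/ob* 1 and 2, and *ob/ob* 3 with controls 1 and 2. The difference was -0.93 ± 0.86 (limma *P* = 0.320, exact permutation *P* = 0.30). A second, dimmer *Ctsd* probe read 7.37, 7.57, and 7.13 in controls and 6.56, 6.73, and 6.73 in *ob/ob* samples. On this probe all *ob/ob* samples lay below all controls, with a difference of -0.68 ± 0.31 (limma *P* = 0.0662, adjusted *P* = 1, exact permutation *P* = 0.10), the same direction as on the brighter probe.

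Further cathepsins, taken here after their values were seen, shared the high value of *ob/ob* 3. *Ctsb*, cathepsin B, a broadly expressed protease, had signals of 12.39, 11.63, and 10.17 in controls and 11.12, 10.64, and 15.38 in *ob/ob* samples. For *Ctsl*, cathepsin L, another broadly expressed protease, they were 9.99, 9.34, and 8.60 compared with 8.41, 8.71, and 13.35. *Ctsk*, cathepsin K, the collagen-cleaving enzyme of osteoclasts, read 7.00, 5.91, and 2.60 compared with 3.85, 2.79, and 9.78. In all 3, *ob/ob* 1 and 2 lay below control 1, and *ob/ob* 3 exceeded every other array by 2.78 or more. Their differences were 0.98 ± 1.33 for *Ctsb*, 0.85 ± 1.34 for *Ctsl*, and 0.30 ± 2.04 for *Ctsk*, each smaller than its standard error, and each turned negative without *ob/ob* 3, at -0.54, -0.75, and -1.73.

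*Ctsc*, cathepsin C, which activates granule proteases of leukocytes, followed the same course, with 5.75, 5.33, and 4.14 in controls and 4.62, 3.32, and 8.65 in *ob/ob* samples. A different course was seen for *Ctsw*, a cathepsin of cytotoxic lymphocytes, with 8.44, 8.88, and 10.46 compared with 10.40, 10.58, and 7.44. Here *ob/ob* 3 was the lowest array and control 3 lay with *ob/ob* 1 and 2. *Ctso* had 6.78, 6.40, and 6.83 in controls and 8.01, 7.57, and 6.49 in *ob/ob* samples, so that only *ob/ob* 3 fell within the controls' range. Its difference was 0.68 ± 0.47 (limma *P* = 0.195, exact permutation *P* = 0.30). The remaining cathepsins, *Ctsa*, *Ctsf*, *Ctsh*, and *Ctsz*, had differences of -0.60 to 0.27, and of these *Ctsf* had the smallest range over the 6 arrays, 0.69.

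The 6 other hydrolases act on lipids, glycans, and proteins. Their median difference was -0.08, with 3 above 0 and 3 below, and the groups overlapped for all 6. *Lgmn*, legumain, an asparaginyl endopeptidase that matures cathepsins, had the highest difference. It read 7.06, 6.70, and 6.32 in controls and 6.88, 6.21, and 9.96 in *ob/ob* samples. Again *ob/ob* 3 stood apart, by 2.90, and *ob/ob* 1 and 2 lay within or below the control range. The difference was 0.99 ± 0.98 (limma *P* = 0.349, exact permutation *P* = 0.70), and -0.13 without *ob/ob* 3.

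*Gaa*, acid alpha-glucosidase, which degrades glycogen in the lysosome, had the lowest difference of the 41 genes. Its signals were 9.62, 9.59, and 5.54 in controls and 5.04, 4.53, and 10.18 in *ob/ob* samples. The 3 arrays of controls 1 and 2 and *ob/ob* 3 lay together at the top and the other 3 together at the bottom. The difference was -1.67 ± 1.82 (limma *P* = 0.392, exact permutation *P* = 0.60). The dimmer *Gaa* probe ran the other way, with 5.55, 5.63, and 6.62 in controls and 6.87, 6.87, and 5.40 in *ob/ob* samples and a difference of 0.45, so that no direction is given for the gene.

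Of the remaining hydrolases, *Gla*, whose window holds a pair of matches, had signals of 14.89, 14.80, and 13.35 in controls and 14.33, 14.13, and 14.96 in *ob/ob* samples, with a difference of 0.13 ± 0.53. *Hexa*, the alpha subunit of hexosaminidase A, which degrades gangliosides, read 7.89, 7.86, and 6.30 compared with 6.05, 5.81, and 8.44. It showed the grouping of *Gaa*, with a difference of -0.58 ± 0.84. *Lipa*, lysosomal acid lipase, which splits cholesteryl esters and triglycerides, read 6.80, 6.54, and 6.01 in controls and 5.73, 5.83, and 6.91 in *ob/ob* samples. Its difference was -0.29 ± 0.45, and *Gusb*, beta-glucuronidase, had one of 0.32 ± 0.56.

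The 9 membrane, lumenal, and regulatory proteins had a median difference of 0.09, which was -0.15 with the 75th percentile scaling, with 5 genes above 0 and 4 below. *Npc1*, the membrane protein that exports cholesterol from the lysosome, was 1 of the 3 genes without overlap. It read 5.38, 5.05, and 6.50 in controls and 7.06, 6.93, and 6.50 in *ob/ob* samples, with *ob/ob* 3 above control 3 only beyond the second decimal. The difference was 1.19 ± 0.47, or 2.28-fold (limma *P* = 0.0429, adjusted *P* = 1, exact permutation *P* = 0.10). Within the shared scan it was 1.12, without both control 3 and *ob/ob* 3 it was 1.60, and with normexp background correction it was 0.56.

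*Npc2*, the soluble partner of NPC1 that hands it cholesterol, did not follow *Npc1*, with 9.44, 8.94, and 6.71 in controls and 7.61, 6.65, and 9.98 in *ob/ob* samples. Its difference was -0.28 ± 1.07. *Psap*, prosaposin, the precursor of activators of sphingolipid hydrolases, had the lowest difference of the class, -0.68 ± 1.14 (limma *P* = 0.570, exact permutation *P* = 0.90), from 9.62, 9.19, and 6.56 compared with 7.08, 6.50, and 9.75. For both genes control 3 lay near *ob/ob* 2, and *ob/ob* 3 was the highest array.

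*Lamp1* and *Lamp2* encode the abundant glycoproteins of the lysosomal membrane. *Lamp1* read 12.60, 12.15, and 11.71 in controls and 11.21, 11.47, and 14.19 in *ob/ob* samples, and *Lamp2* 8.41, 7.99, and 5.02 compared with 6.58, 5.52, and 10.91. In both, *ob/ob* 1 and 2 lay below controls 1 and 2 and *ob/ob* 3 above them. Their differences were 0.14 ± 0.83 and 0.53 ± 1.59. *Mcoln1*, the calcium channel, had a difference of -0.24 ± 0.81, and *Grn*, progranulin, a lumenal glycoprotein, one of 0.09 ± 0.45.

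The regulators *Tfeb* and *Tfe3* differed from each other in spread. *Tfeb* had signals of 5.55, 5.71, and 5.62 in controls and 5.39, 5.71, and 5.52 in *ob/ob* samples. Over the 6 arrays its range was 0.32, and its difference was -0.09 ± 0.30 (limma *P* = 0.777, exact permutation *P* = 0.40). *Tfe3* read 6.52, 6.68, and 9.83 in controls and 9.95, 9.94, and 6.91 in *ob/ob* samples. Control 3 and *ob/ob* 1 and 2 lay well above the other 3 arrays, the reverse of *Gaa*, and the difference was 1.26 ± 1.21 (limma *P* = 0.336, exact permutation *P* = 0.20). A second, dimmer *Tfe3* probe ran the opposite way, with 8.26, 8.11, and 5.57 in controls, 6.22, 5.54, and 8.87 in *ob/ob* samples, and a difference of -0.43, so that no direction is given for *Tfe3* either.

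The 14 pump subunits had a median difference of 0.17 and the narrowest range of the 4 classes, -0.16 to 1.28, with 12 above 0 and 2 below. *Atp6v1e1*, the E1 subunit of the stalk that holds the V1 sector, had the highest difference and the lowest *P* of the 41 genes. Its signals were 7.04, 6.37, and 6.60 in controls and 7.87, 7.89, and 8.08 in *ob/ob* samples. All *ob/ob* samples lay close together and above all controls, *ob/ob* 3 included. The difference was 1.28 ± 0.33, or 2.42-fold (limma *P* = 0.00737, adjusted *P* = 1, exact permutation *P* = 0.10). Within the shared scan it was 1.05, and leaving out any single array gave 1.07 to 1.43.

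*Atp6v1a* also had no overlap, with 7.51, 7.41, and 7.31 in controls and 7.79, 7.77, and 8.50 in *ob/ob* samples. The controls lay close together, and *ob/ob* 3 was the highest array. Its difference was 0.61 ± 0.35 (limma *P* = 0.125, adjusted *P* = 1, exact permutation *P* = 0.10). A dimmer *Atp6v1a* probe had a like difference of 0.68 but overlapping groups, with 6.86, 5.98, and 4.56 compared with 5.57, 5.03, and 8.83. The lowest difference of the class was that of *Atp6v0b*, a proteolipid of the V0 ring, -0.16 ± 0.30 (limma *P* = 0.620, exact permutation *P* = 0.30), from 6.55, 6.72, and 6.56 compared with 6.26, 6.50, and 6.60.

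Divided by sector, a division made after the values were seen and given without a test, the 7 subunits of V1 had differences of 0.09 (*Atp6v1d*) to 1.28, all above 0, with a median of 0.69. The 5 subunits of V0 had differences of -0.16 to 0.20, with 3 above 0 and a median of 0.07. Within the shared scan, 6 of 7 V1 subunits and 1 of 5 V0 subunits lay above 0. Without control 3 and *ob/ob* 3 this was 3 of 7 and 1 of 5, with a V1 median of -0.06. *Atp6v1b2*, *Atp6v1c1*, and *Atp6v1h*, which had V1 differences of 0.69, 0.96, and 0.90, each had their highest signal by over 2 units on *ob/ob* 3.

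The V0 subunits *Atp6v0b*, *Atp6v0c*, and *Atp6v0d1* and the V1 subunit *Atp6v1f* were among the 6 genes, with *Ctsf* and *Tfeb*, whose range over the 6 arrays was under 1 unit. That was 14.6% of the 41 genes and 19.2% of all genes. *Atp6v0d1*, whose window holds TCACGTGA at the start itself, read 6.51, 6.43, and 6.46 in controls and 6.33, 6.35, and 6.94 in *ob/ob* samples. The accessory protein *Atp6ap2*, also known as the prorenin receptor, varied far more, with 7.56, 6.97, and 5.39 compared with 5.48, 5.14, and 9.65. *Atp6ap1*, the other accessory protein, had a difference of 0.03 on its brighter probe and -0.33 on the dimmer one, and no direction is given for it.

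**Figure D2:**
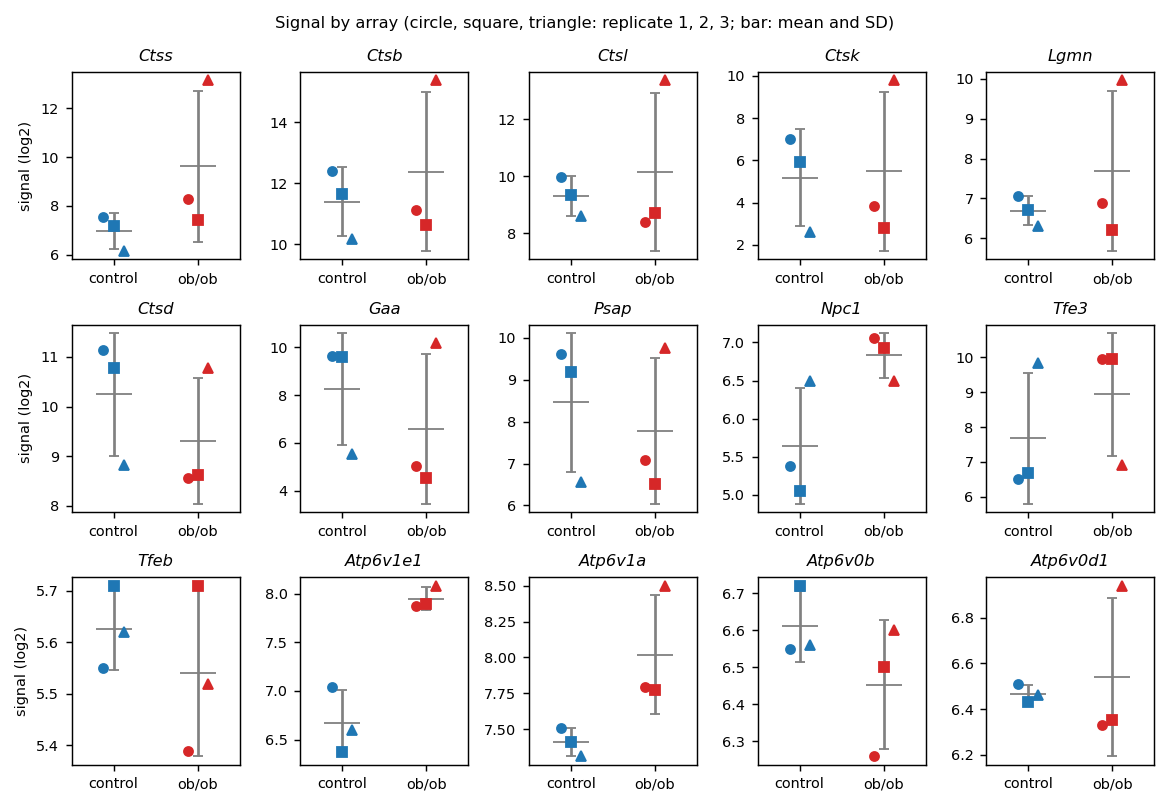
Log2 signal of 15 lysosomal genes on each array, with control samples in blue and *ob/ob* samples in red, symbols for replicates 1, 2, and 3, and bars for the mean and SD (n = 3 per group, axes differ between panels). *Atp6v1e1* is the gene in which the 3 *ob/ob* samples lie close together above the controls, whereas in *Ctss*, *Ctsb*, *Ctsl*, *Ctsk*, and *Lgmn* the triangle of *ob/ob* 3 stands alone at the top.

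The array of *ob/ob* 3 stood apart for many of these genes. It was the highest of the 6 arrays in 28 of the 41 genes (68.3%), compared with 30.5% of all genes. It exceeded every other array by over 2 units, or 4-fold, in 11 genes (26.8%), compared with 2.13% of all genes. These were *Ctsb*, *Ctsc*, *Ctsk*, *Ctsl*, *Ctss*, *Lgmn*, *Lamp2*, *Atp6v1b2*, *Atp6v1c1*, *Atp6v1h*, and *Atp6ap2*, so that 5 of 12 cathepsins, 4 of 14 pump subunits, 1 of 6 other hydrolases, and 1 of 9 of the remaining class were among them. The lowest control was control 3 in 28 genes (68.3%), compared with 38.8% of all genes. Controls 1 and 2 and *ob/ob* 3 all lay above the other 3 arrays in 21 genes (51.2%), compared with 30.1%. These shares are descriptions of the 6 arrays, without a test.

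Spread within groups also differed between the classes. The median SD was 0.75 among controls and 1.39 among *ob/ob* samples over the 41 genes, compared with 0.53 and 0.77 over all genes. Pump subunits had the smallest, 0.35 and 1.02, and cathepsins had 0.74 and 1.52. For the membrane, lumenal, and regulatory proteins it was 1.07 and 1.65.

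Without control 3 and *ob/ob* 3, the median of 3 of the 4 classes turned from above to below 0. The median difference then was -0.68 over the 41 genes, with 12 above 0 and 29 below, compared with 0.06 over all genes, of which 53.3% lay above 0 and 46.7% below. It was -1.11 for cathepsins, -0.73 for other hydrolases, -1.03 for membrane, lumenal, and regulatory proteins, and -0.17 for pump subunits. At an adjusted *P* under 0.05 (limma), 20 of the 41 genes were lower and 7 higher, compared with 26.9% and 22.0% of all 19007 genes. Before adjustment the counts of the 41 genes were the same, and those of all genes 29.5% lower and 25.3% higher. The groups did not overlap in 10 higher and 23 lower genes of the 41, compared with 37.9% and 36.9% of all genes. Leaving out the 2 arrays that resemble the other group lowers the spread within groups by construction, so these calls are no independent test of the genotype.

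Among the 20 lower genes in that comparison of 2 against 2, the largest differences were those of *Gaa* at -4.54, *Ctsk* at -2.93, *Psap* at -2.49, and *Ctsd* at -2.36. Of these, *Ctsk* was well above background on only 2 arrays of each group. The 7 higher genes were *Tfe3* at 3.21, *Ctsw* at 1.82, *Npc1* at 1.60, *Ctso* at 1.08, *Atp6v1e1* at 1.07, *Ctsh* at 0.82, and *Atp6ap1* at 0.76. On their dimmer probes the same comparison ran the other way, at 1.14 for *Gaa*, -2.1 for *Tfe3*, and -0.41 for *Atp6ap1*. As above, no direction is given for *Gaa*, *Tfe3*, and *Atp6ap1*. By class, 7 of 12 cathepsins, 4 of 6 other hydrolases, 5 of 9 membrane, lumenal, and regulatory proteins, and 4 of 14 pump subunits were lower. *Npc1*, *Atp6v1e1*, and *Atp6v1a* were above 0 here on their brightest probes, as with all arrays. *Atp6v1a* did not pass, at 0.31 (limma adjusted *P* = 0.269). Its dimmer probe changed side and was lower here, at -1.01 (limma adjusted *P* = 0.0318).

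Within the scan that holds controls 1 and 3 and *ob/ob* 1, the median over the 41 genes was -0.19. Of these, 15 lay above 0 and 26 below. Over all 19007 genes the median in this scan was -0.06, with 8696 above 0 and 10311 below. Cathepsins had a median of -0.24 there, other hydrolases -0.50, membrane, lumenal, and regulatory proteins -0.32, and pump subunits 0.10. This comparison rests on a single *ob/ob* array and has no test. Scan and genotype cannot be told apart for the other 3 arrays, each of which was scanned alone.

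**Figure D3:**
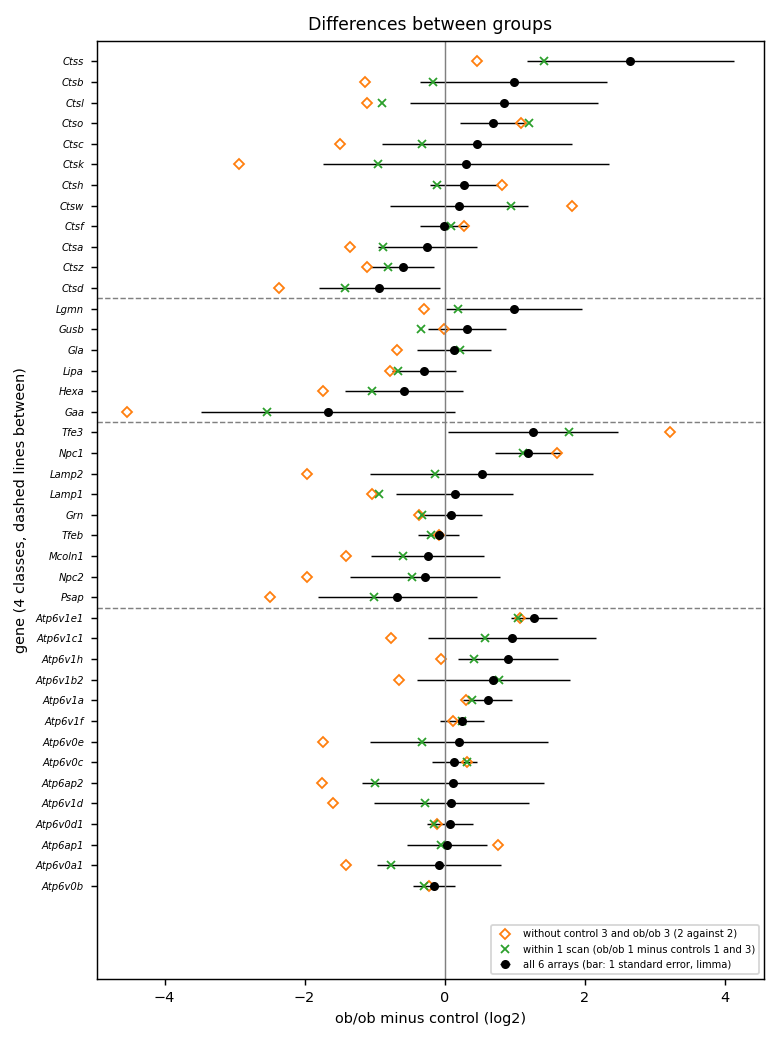
Differences between *ob/ob* and control iBAT (x axis, log2) of the 41 tested lysosomal genes by class, with all 6 arrays (black, bar 1 SE from limma), within the shared scan (green crosses), and without control 3 and *ob/ob* 3 (orange diamonds). For *Atp6v1e1*, *Npc1*, and *Atp6v1a*, as for other genes such as *Ctss* and *Ctsd*, the 3 estimates lie on the same side of 0. *Ctsb*, *Ctsl*, *Ctsc*, and *Ctsk* have a positive black point and a negative orange one. Genes are shown by their brightest probe, and the dimmer *Atp6v1a* probe changed side, with 0.68, -0.14, and -1.01 in the same order.

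Other genes of the lysosome, from lists written for this purpose, were set beside these. Of 31 further hydrolases, 28 were tested, with a median difference of -0.15, 9 above 0, and 19 below. *Sgsh*, which degrades heparan sulfate, was higher, with 11.65, 11.04, and 14.28 compared with 14.89, 14.73, and 15.05 and a difference of 2.57 ± 0.84 (limma *P* = 0.0211, adjusted *P* = 1, exact permutation *P* = 0.10). Its dimmer probe had overlapping groups. *Smpd1*, acid sphingomyelinase, had the lowest difference, -2.42 ± 1.41, with overlapping groups. The groups did not overlap for *Dpp7* (-0.38) and *Prcp* (0.46). For *Prcp* the dimmer probe ran the other way, at -0.25. In this list *ob/ob* 3 exceeded every other array by over 2 units in 0 of 28 genes. It was still the highest array in 17 of them (60.7%), compared with 68.3% of the 41 genes and 30.5% of all genes. Controls 1 and 2 and *ob/ob* 3 all lay above the remaining arrays in 14 (50%), compared with 51.2% of the 41 genes and 30.1% of all genes.

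Of the 11 further pump subunits, many of them forms specific to tissues, 10 were tested, with a median of 0.05 and 5 on each side of 0. *Atp6v0d2*, the d2 form known from osteoclasts and macrophages, had signals of 5.13, 5.25, and 5.57 in controls and 6.26, 5.73, and 7.74 in *ob/ob* samples. The groups did not overlap, with a difference of 1.26 ± 0.57 (limma *P* = 0.0648, exact permutation *P* = 0.10). *Tcirg1*, the a3 form of the V0 a subunit, also had no overlap, with a difference of 0.30 that was 0.04 under the 75th percentile scaling. The lowest was that of *Atp6v0a2*, -1.18 ± 1.49, which was well above background on 3 arrays in all. The 17 further membrane proteins had a median of -0.08, from -1.76 (*Slc17a5*, a sialic acid exporter, whose dimmer probe ran the other way) to 0.99 (*Tpcn2*, a cation channel), with 0 at an unadjusted *P* under 0.05.

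The 9 genes of the mannose 6-phosphate pathway, which marks hydrolases for the lysosome and sorts them there, had a median of -0.79, with 8 below 0 and 1 above. *Nagpa*, the enzyme that uncovers the mannose 6-phosphate mark, had signals of 10.20, 10.40, and 9.86 in controls and 8.62, 8.74, and 8.61 in *ob/ob* samples. Every *ob/ob* sample, *ob/ob* 3 included, lay more than 1 unit below every control. The difference was -1.50 ± 0.31 (limma *P* = 0.00267, adjusted *P* = 1, exact permutation *P* = 0.10). *Gga3*, an adaptor for the receptors, read 9.46, 9.66, and 9.02 compared with 8.33, 8.65, and 8.38, again without overlap, with a difference of -0.92 ± 0.33 (limma *P* = 0.0305, adjusted *P* = 1, exact permutation *P* = 0.10). The receptor gene *Igf2r* had overlapping groups, with a difference of -0.79 ± 0.64. The other receptor gene, *M6pr*, had one of -0.81 ± 1.01 with overlapping groups, but its dimmer probe ran the other way, at 0.71 without overlap, so that no direction is given for it. The highest difference was that of *Gga1*, 0.03, or -0.37 with the 75th percentile scaling. With normexp background correction the median of the list was -0.31. Within the shared scan all 9 genes lay below 0 on their brightest probes, as did 10311 of all 19007 genes. The dimmer *M6pr* probe lay above 0 there, at 0.70.

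Markers of cell types were summed as the mean log2 signal of each list, to give the levels that moved beside these values. For 13 macrophage markers it was 7.23 to 7.48 in controls and 7.27 to 8.05 in *ob/ob* samples, highest on *ob/ob* 3, with 12 of the 13 well above background on all 6 arrays. *C1qa*, a complement gene of macrophages, had no overlap, with 5.73, 5.86, and 6.23 compared with 6.70, 6.50, and 7.32 and a difference of 0.90 ± 0.37 (limma *P* = 0.0467, adjusted *P* = 1, exact permutation *P* = 0.10). *Cd14*, a receptor for bacterial lipopolysaccharide, also had none, with a difference of 0.23 ± 0.29. The highest and lowest differences of the list were those of *Csf1r*, the receptor of their growth factor, at 1.12, and *Itgam*, an integrin of myeloid cells, at -1.43, and for both genes the dimmer probes disagreed in direction. On *ob/ob* 3, 7 of the 13 markers had their highest signal of the 6 arrays. Among them were *Mrc1*, the mannose receptor, at 9.98 compared with 3.54 to 5.99 on the other arrays, and *C1qc*, at 9.69 compared with 4.34 to 6.53. *Adgre1*, which encodes F4/80, was lowest there on its brighter probe, at 7.42 compared with 7.84 to 8.78, and highest on its dimmer one, at 10.01 compared with 5.59 to 6.64.

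On *ob/ob* 3, the array with the highest median of each lysosomal class, markers of fibroblasts, skeletal muscle, and adipocytes were high as well. The mean over 6 fibroblast markers was 11.1 on it, compared with 6.22 and 6.36 on the other *ob/ob* arrays and 7.03 to 9.34 in controls. For 10 skeletal muscle markers it was 11.5, compared with 6.07 on both of the other *ob/ob* arrays and 7.86 to 10.3 in controls. For 8 adipocyte markers it was 11.2, compared with 8.78 and 9.16 on the other *ob/ob* arrays and 8.80 to 10.8 in controls. The 12 lymphocyte markers had their lowest mean on *ob/ob* 3, at 6.14, compared with 6.75 to 7.39 on the other arrays, which is also the array of the lowest *Ctsw*. Brown adipocyte markers had means of 7.98 to 10.8 in controls and 7.16 to 8.43 in *ob/ob* samples. The part of these cells, and of the low spike-in signal of *ob/ob* 3, in the lysosomal values was not tested.

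**Figure D4:**
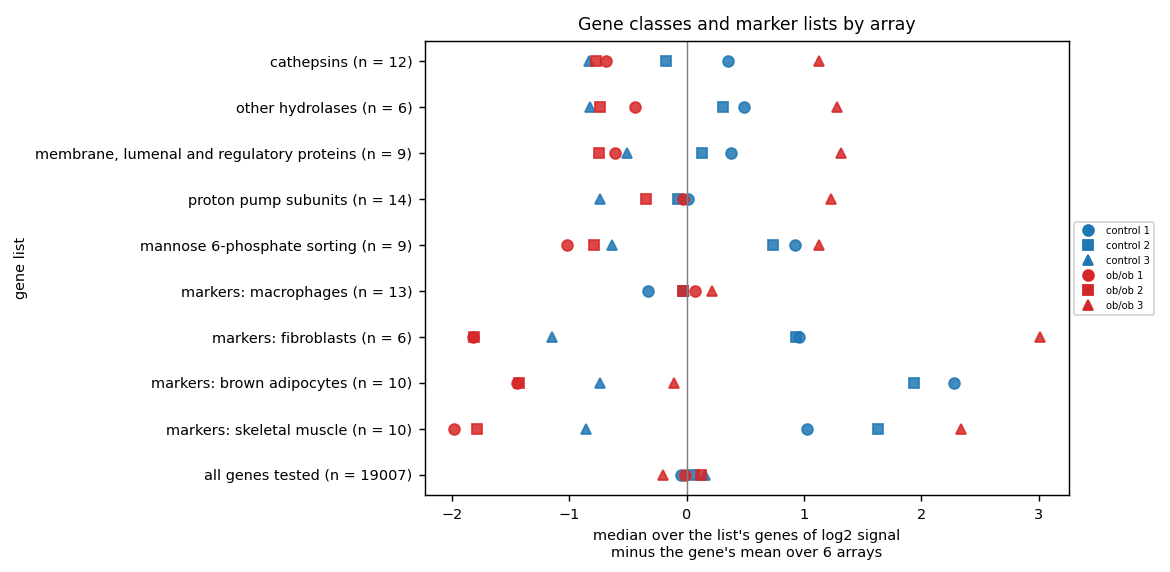
Median over the genes of each list of the log2 signal minus the mean of the gene over 6 arrays (x axis), for the 4 lysosomal classes, the mannose 6-phosphate pathway, marker lists, and all genes, by array. In each lysosomal class *ob/ob* 3 (red triangle) is the highest array, at 1.13 to 1.32, and control 3 (blue triangle) lies below controls 1 and 2, at -0.83 to -0.51.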

How the data were processed

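RNA of 3 control and 3 *ob/ob* iBAT samples was measured on Agilent arrays, 1 per sample. The intensities deposited by the authors are the processed signals of Agilent Feature Extraction (version 11.0.1.1, per the submitters' processing notes), corrected for background within each array but not scaled between arrays. A second deposited file holds log2 values that the authors quantile normalized in GeneSpring; its columns correlated at 0.987 to 0.998 with the arrays of the same name.

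Here, spots with an outlier flag were left out, which removed 104 of 39429 probes. Replicate spots were averaged as log2 values, and the arrays were quantile normalized. A probe was kept when at least 50% of its spots were well above background on at least 3 of 6 arrays, which left 35448 probes. RefSeq accessions were given for 28623 probes, and 27174 of these received a name from RefSeq GRCm38.p6, a build used for names and promoter windows only, since the array was annotated on another. A gene was read from its brightest probe. *ob/ob* and control samples were compared with limma (version 3.58.1; R version 4.3.3), without covariates. Other steps used Python 3.11.15, with matplotlib 3.10.9, numpy 2.4.6, and pandas 2.3.3. The limma code was tested on simulated data. The arrays carry no counts, and their number limits the precision.

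The genes and all lists were chosen with earlier results of these data known, so no test over a list is given. Described in full were genes with an unadjusted *P* under 0.05 or without overlap between groups, the highest and lowest difference of each class, *Tfeb* and *Tfe3*, and genes whose probes disagreed in direction. From each list beside them came the highest and lowest difference and genes that met the first criterion. Other genes were picked after their values were seen. A result of the further hydrolases is not reported here.

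The alternatives were the 75th percentile scaling, normexp (offset 50, on the median spot signal, since no mean is given), the authors' table, no detection filter, detection on every array, a significance flag in place of the one for well above background, the methods' t-test, robust limma with a trend on intensity, the replicate number or the scan as a block, the mean of a gene's probes, and leaving out each array, or control 3 and *ob/ob* 3 together.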

Additional observations from a re-analysis of the deposited data

How the results depend on the processing

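At an adjusted *P* under 0.05, 0 of the 41 genes passed with the methods' t-test or in the limma alternatives, with 1 exception. Without control 3 and *ob/ob* 3 together, 27 passed in limma. In that comparison of 2 against 2, 7 genes were higher and 20 lower at an unadjusted *P* under 0.05, 10 were higher and 23 lower without overlap (37.9% and 36.9% of all genes), and the medians were -1.11 for cathepsins and -1.03 for membrane, lumenal, and regulatory proteins. The 2 genes higher at an unadjusted *P* under 0.05 became 0 with the 75th percentile scaling, 1 with the methods' t-test, 0 with the scan as a block, and 0 with the replicate block. Leaving out 1 array at a time gave 1 to 3 genes higher (1 without control 1, control 2, or *ob/ob* 1 and 3 without *ob/ob* 3) and 0 to 1 lower at that *P*. *Npc1* was no longer among them without control 1, control 2, *ob/ob* 1, or *ob/ob* 2. Without overlap there were 3 to 6 higher (5 without control 1 or control 3 and 6 without *ob/ob* 2 or *ob/ob* 3) and 0 to 9 lower (9 without *ob/ob* 3), while the share of all genes ran from 4.04% to 14.9% higher and 4.63% to 14.7% lower, both greatest without *ob/ob* 3. The medians then ran from -0.64 to 0.38 for cathepsins, -0.46 to 0.15 for other hydrolases, -0.85 to 0.45 for membrane, lumenal, and regulatory proteins, and -0.15 to 0.80 for pump subunits. The lowest median was the one without *ob/ob* 3, except for other hydrolases, where it was the one without control 3. Of the 41 genes, 17 changed side without *ob/ob* 3, 15 with the scan as a block, and 3 with the 75th percentile scaling, while the authors' table changed 0. Deviations of same-numbered arrays correlated at -0.781, -0.658, and -0.850. Between arrays of different number this ran from -0.849 (control 1 with *ob/ob* 2) to 0.865 (control 1 with *ob/ob* 3). Since control 3 and *ob/ob* 3 each resemble the other group, these correlations cannot tell whether the replicate numbers pair the samples. The cause of these changes was not tested, and 3 samples per group, with 1 in each that resembles the other group, limit every value above.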

Other observations

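Of 16 genes of lysosomal nutrient signaling, 10 lay above 0 and 6 below, with a median difference of 0.10. *Mitf*, a transcription factor related to TFEB, had the highest, with log2 signals of 6.35, 5.78, and 7.82 in controls and 8.70, 8.39, and 7.27 in *ob/ob* samples and a difference of 1.47 ± 0.66 (SE). The lowest was that of *Flcn*, folliculin, which acts on the Rag GTPases, with 9.37, 9.52, and 5.63 compared with 4.90, 4.71, and 8.91. On these probes control 3 lay nearer to *ob/ob* 1 and 2 than to the other controls. A dimmer *Mitf* probe had a difference of 0.54 with all arrays. Without control 3 and *ob/ob* 3 the dimmer probe ran the other way, at -0.93, while the brighter one was at 2.28.

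Among 20 autophagy genes, 7 lay above 0 and 13 below, with a median of -0.09. *Atg7*, the enzyme that activates the ubiquitin-like proteins of autophagy, read 10.44, 10.67, and 7.44 in controls and 6.79, 6.41, and 7.64 in *ob/ob* samples, so that the groups overlapped through control 3. The difference was -2.57 ± 0.92 (limma *P* = 0.0299, adjusted *P* = 1, exact permutation *P* = 0.20), while its dimmer probe had one of -0.07. *Atg16l1*, which helps to place LC3 on membranes, had the highest difference, 2.17 ± 1.30, with overlapping groups. Of 5 cystatins, inhibitors of cysteine cathepsins, 2 lay above 0 and 3 below, and *Cst3*, cystatin C, had the lowest difference, -1.29 ± 0.86, while *Csta1* had the highest, 0.70 ± 0.48.

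Of the cell type markers, those of brown adipocytes lay below 0 in 10 of 10 genes, with a median of -2.20, from *Elovl3*, which was not well above background on any *ob/ob* array, to *Dio2* at -0.16. *Ppargc1a* (-2.91 ± 0.87) and *Zic1* (-2.08 ± 0.48), a transcriptional coactivator of thermogenesis and a transcription factor of brown fat, had no overlap between groups, although the dimmer *Zic1* probe ran the other way, at 0.51, with overlap. Among lymphocyte markers, the groups did not overlap for *Ms4a1* of B cells at 1.16 ± 0.36, or for *Cd3e* at -0.85 ± 0.51 and *Cd8a* at -0.91 ± 0.54, both of T cells, while the dimmer *Cd8a* probe ran the other way, at 0.23, with overlap. Adipocyte markers ran from *Cfd* at -3.09 to *Lep* at 2.07, which had no overlap, like *Retn* at -1.98. For endothelial cells the range was *Kdr* at -3.44 to *Pecam1* at 0.05, for fibroblasts *Dcn* at -1.65 to *Lum* at 0.13, and for skeletal muscle *Myh4* at -4.13 to *Mylpf* at 1.19, which had no overlap. The adjusted *P* (limma) was 1 for each of these genes.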
